A study of Mus musculus with 39 samples.

Results

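The 8 transcription factor genes that mark regions of the gut (Pdx1, Gata4, Gata6, Cdx1, Cdx2, Hnf4a, Hnf4g and Sox2) were described in RNA from mouse duodenum. They were taken by symbol from the deposited count table, which held all 8 among its 16358 genes. The series concerns fast effects of hypothalamic circuits on the gut and its microbes, and its duodenum was measured in 39 bulk RNA-seq libraries. All were from male wild-type C57BL/6 mice aged 8 weeks, each with a cannula in a lateral brain ventricle placed 3 days earlier. The mice drank plain water or, for 48 h, water with ampicillin at 1 g/L and neomycin at 0.5 g/L. After 2 h without food they received 3 µg of leptin or saline into the ventricle, and tissue was collected 2 h later. The groups were Saline-water (14 libraries), Leptin-water (13), Saline-antibiotic (6) and Leptin-antibiotic (6). The library names are of 2 kinds, here called set M (8 Saline-water and 7 Leptin-water) and set MT (6 of each of the 4 groups), and the labels do not say what separated them. Every group, saline controls included, carried the cannula and the injection.

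The vertebrate gut tube is patterned by transcription factors that are each active along part of its length and that keep the adult epithelium of a region distinct. SOX2 is the factor of the stomach and oesophagus, and CDX2 and its relative CDX1 are homeobox factors of the intestine. PDX1 is a homeobox factor of the duodenum and pancreas, GATA4 is a zinc finger factor of the proximal small intestine, and its relative GATA6 is also active further down. HNF4A and HNF4G are related nuclear receptors that bind the same sites at genes of lipid absorption and the brush border in enterocytes.

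Library totals ranged from 30207536 to 67870777 counts (median 48282125), and residual ribosomal RNA, read from Rn45s, took 2.87% to 13.3% of them. The tissue label was checked on defining markers. The small intestine markers Epcam, Vil1, Alpi, Sis, Fabp2 and Cdh17 were each at 508 CPM (counts scaled to library size, here with TMM factors) or more in every library. The Brunner gland mucin Muc6 ranged from 1370 to 35400 CPM, the stomach mucin Muc5ac from 0.497 to 1460 CPM, and the acid pump gene Atp4a stayed at or below 0.937 CPM. A list of exocrine pancreas genes, averaged as log2 CPM, was between 4.73 and 5.61 in 6 libraries and between -1.84 and 2.95 in the other 33. The 6 were numbers 1, 2 and 5 of Saline-antibiotic, 3 of Leptin-antibiotic and 6 and 10 of Leptin-water. For each of the 8 factors the range over these 6 libraries overlapped that over the other 33. Overlap of ranges cannot show that the factors are unaffected, and fits without these libraries are given below. None of the 8 listed pancreatic islet genes was in the table analysed here. No 2 libraries held the same values in any of the 109 pairs formed inside a group of 1 set. The labels do not say that each library is a separate animal, so p-values measure the spread between these samples.

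One library stood apart in the factors themselves. Saline-water 13, of set MT, had the highest values of all 39 libraries for Pdx1 (200.8 CPM), Gata4 (318.2 CPM) and Cdx2 (131.7 CPM), and at 183.4 CPM Gata6 was also at its top. The same library had the lowest Cdx1 (52.48 CPM) and a Sox2 count of 0, while Hnf4a (875.5 CPM) and Hnf4g (429.9 CPM) ranked 5 and 32. Its total was 41831957 counts with 10.6% from Rn45s, both inside the range of the others. Its part in the results below was measured by leaving it out.

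Reads were 50 bases long, so the closest relatives among the factors were checked for stretches that a read could share. The longest identical run between any Hnf4a and any Hnf4g transcript is shown because a ratio of these 2 genes carries a result below, and it lies in the coding part of both:
Hnf4a and Hnf4g shared run: catctgctgcttggagc
At 17 bases it is shorter than a read. The longest run was 18 bases between Gata4 and Gata6 and 16 bases between Cdx1 and Cdx2, also coding in both. Pdx1 and Cdx2 lie on chromosome 5 of GRCm38, 25.0 kb apart, Pdx1 on the plus strand at 147269959 to 147275848 and Cdx2 on the minus strand at 147300805 to 147307270. Hnf4g spans chr3:3508030-3658052 and Sox2 chr3:34650405-34652461, both on the plus strand. Hnf4a spans chr2:163506808-163572910 on the plus strand and Gata4 chr14:63198922-63271692 on the minus strand. All 8 are protein coding, and Sox2 is a single exon. The opposite-strand genes Plut (at Pdx1) and Hnf4aos (at Hnf4a) share no exon base with them, and a processed transcript shares 93 exon bases (1.4%) with Gata6.

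Windows of 250 bases before the RefSeq start of transcription were searched for sites of the factors themselves, and sequence is shown for Pdx1 and Cdx2, whose levels moved together across libraries (below), and for the upstream start of Hnf4a, the only one searched that held a match. The sequences are from RefSeq (GRCm38.p6), and 5 starts of 4 of the 8 factors (Pdx1, Cdx2, Hnf4a and Sox2) were searched. Gata4 and Hnf4g had no matched entry, and Gata6 and Cdx1 were left out of the search. Letters for the recognition sites of GATA factors (AGATAA), CDX factors (TTTATNG) and HNF4 (CAAAGTCCA) were searched on both strands, and the match is in capitals. For the windows printed here the RefSeq starts lie inside the gene spans given above. These windows run into the spans by 138 bases at Pdx1, 49 at Hnf4a and 21 at Cdx2. Only the bases before those spans are printed, and for Hnf4a also the last 3 bases of the match, which crosses the start of the span. The Sox2 window, not printed, begins at 34649745 and ends before the Sox2 span.
Hnf4a, chr2:163506607-163506810, plus strand: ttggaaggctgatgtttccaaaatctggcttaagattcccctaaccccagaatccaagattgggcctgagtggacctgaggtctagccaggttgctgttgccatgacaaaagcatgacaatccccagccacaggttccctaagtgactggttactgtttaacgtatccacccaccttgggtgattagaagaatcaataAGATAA
Pdx1, chr5:147269847-147269958, plus strand: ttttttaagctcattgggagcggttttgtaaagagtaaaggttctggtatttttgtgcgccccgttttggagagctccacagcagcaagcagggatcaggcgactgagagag
Cdx2, chr5:147307271-147307499, minus strand: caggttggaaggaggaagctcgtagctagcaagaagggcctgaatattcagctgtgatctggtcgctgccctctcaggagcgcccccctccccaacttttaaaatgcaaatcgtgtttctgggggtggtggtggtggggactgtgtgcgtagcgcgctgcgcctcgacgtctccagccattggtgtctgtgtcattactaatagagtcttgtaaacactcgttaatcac
The Hnf4a window held 1 GATA match, and the Pdx1, Cdx2 and Sox2 windows and the second Hnf4a window held none of the 3. Among 32851 windows of the same length, 9.99% held the GATA letters, 9.81% the CDX letters and 0.384% the HNF4 letters.

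All the intestinal factors were abundant, and the foregut factor was close to absent. Levels of different genes are compared as CPM per kilobase of exons. Hnf4g led with a median of 210.2, followed by Hnf4a (163.4), Gata4 (65.8), Pdx1 (56.1), Cdx2 (41.4), Cdx1 (38.6), Gata6 (22.4) and Sox2 (0.164). Some neighbours in this order were separated in every library, since Hnf4a lay above Gata4, Pdx1 above Cdx2, Cdx1 above Gata6 and Gata6 above Sox2 in all 39. Others were not, since Hnf4g lay above Hnf4a in 30 libraries, Gata4 above Pdx1 in 37 and Cdx2 above Cdx1 in 25. The place of Gata6 rests on its length, because with the longest transcript (3234 bases) in place of the union of exons (6508 bases) its median was 45.1 and it took place 5, above Cdx2 in 23 of 39 libraries.

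The factors differed in how far they varied. The coefficient of variation of CPM over all 39 libraries was lowest for Hnf4a (7.6%) and was 9.5% for Gata4, 11.1% for Gata6, 11.9% for Cdx1, 13.5% for Cdx2 and 13.6% for Pdx1. Hnf4g varied by 23.6%, with its highest library 2.32 times its lowest, against 1.35 times for Hnf4a. Sox2, with 0 to 46 counts a library, varied by 68.9%, and at such counts the spread includes counting error. The HNF4 pair thus held both the steadiest and the most variable of the 7 abundant factors.

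**Figure D1:**
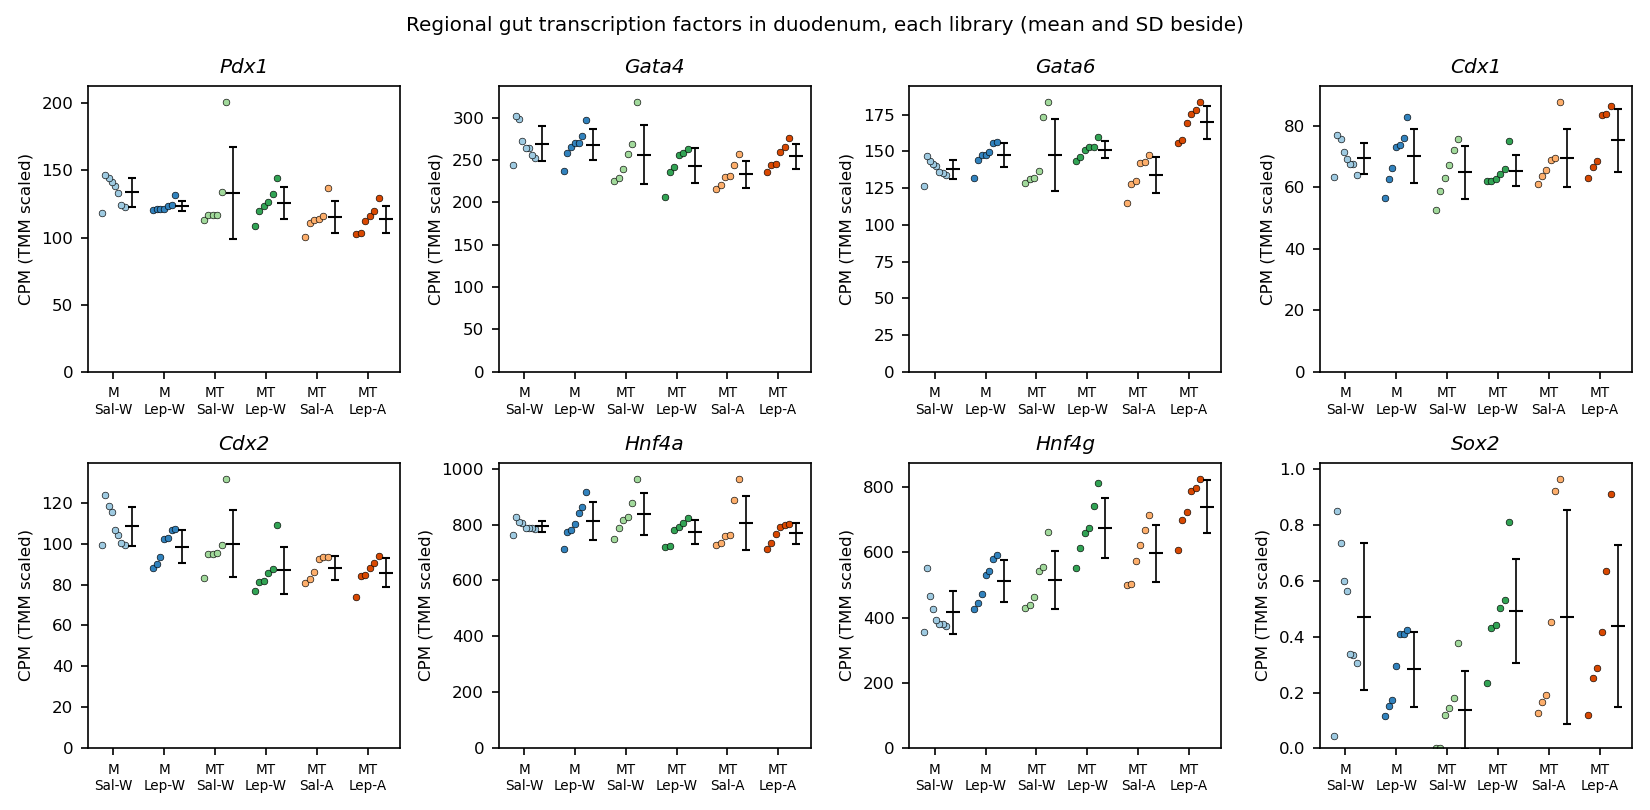
Level of each factor in CPM (vertical axes, from 0) by set and group (Sal, saline; Lep, leptin; W, water; A, antibiotic). Each point is 1 library, and the bar beside it is the mean with the SD. Hnf4g points sit higher in the leptin groups, and Saline-water 13 is the high green point of Pdx1 (200.8) and Cdx2 (131.7).

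Hnf4g, the more enterocyte-restricted of the HNF4 receptors, was higher after leptin in mice on water. It ranged from 355.6 to 662.6 CPM (median 434.6) in the 14 Saline-water libraries and from 427.5 to 809.8 CPM (median 578.9) in the 13 Leptin-water libraries. The groups overlapped, with 3 of 13 leptin libraries above every saline library and 12 of 13 above the saline median. The log2 fold change was 0.34 (SE 0.08) with set as a term, and the adjusted p by edgeR's quasi-likelihood test was 0.0489, just under the threshold of 0.05. It was the only one of the 8 factors called in this comparison, in which 0.312% of the 16356 genes tested were called. More cells that express Hnf4g and more Hnf4g RNA in each cell cannot be told apart in bulk tissue, for this gene and for the others.

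The call of Hnf4g was near its limit. DESeq2 (adjusted p 0.00476) and limma voom (0.0363) also called it, among 173 and 128 genes called in all. Leaving out single libraries kept the log2 fold change between 0.31 and 0.38, yet the call stood in 5 of 27 such fits, with adjusted p from 0.00934 to 0.109. Dropping the 2 pancreas-high libraries on water, Leptin-water 6 and 10, lost it (0.33, adjusted p 0.0554). Means of the pancreas list and of the stomach and Brunner gland list as covariates also lost it (0.34, adjusted p 0.0503). Among the fits that left out 1 library, it stood only without Saline-water 5 or 10 or Leptin-water 5, 6 or 9.

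Both sets gave the same direction for Hnf4g. In set M the saline libraries ranged from 355.6 to 552.9 CPM (median 386) and the leptin libraries from 427.5 to 590.9 CPM (median 529.2). In set MT the ranges were 429.9 to 662.6 CPM (median 502.4) and 551.7 to 809.8 CPM (median 665.8). Every leptin library of both sets lay above the saline median of its set. The log2 fold changes were 0.29 (SE 0.10, adjusted p 0.256) and 0.40 (SE 0.12, adjusted p 0.268), neither called by edgeR, and their difference was 0.10 (SE 0.16, adjusted p 0.879).

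On antibiotic the Hnf4g difference was of similar size and was not called. Saline-antibiotic libraries ranged from 499.1 to 713.8 CPM (median 596.5) and Leptin-antibiotic libraries from 607.5 to 824.5 CPM (median 753.8). Of the 6 leptin libraries, 4 lay above every saline library. This gave 0.32 on the log2 scale (SE 0.12, adjusted p 0.172), and 0.16 (adjusted p 0.793) once the 4 antibiotic libraries and 1 water library of set MT with high pancreas genes were dropped. The leptin effect on antibiotic less that on water was -0.08 (SE 0.16, adjusted p 0.930).

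Hnf4a, the relative of Hnf4g that is also active in liver and colon, was not called. It ranged from 748.3 to 963.9 CPM (median 796.8) in Saline-water and from 711.6 to 917.6 CPM (median 792.2) in Leptin-water. The groups overlapped, although 3 of the 13 Leptin-water values were under the lowest Saline-water value, and 6 were above the saline median. The difference on the log2 scale was -0.03 (SE 0.04, adjusted p 0.820). On antibiotic it was -0.06 (SE 0.08, adjusted p 0.714).

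The ratio of Hnf4g to Hnf4a counts within a library needs no scaling between libraries. It ranged from 0.440 to 0.703 in Saline-water and from 0.466 to 0.830 in Leptin-water of set M, and from 0.456 to 0.802 and from 0.706 to 1.03 in the same groups of set MT. Of the 13 Leptin-water libraries, 5 lay above every Saline-water library. Within sets the log2 ratio was 0.38 higher after leptin (1.30-fold, permutation p 0.00115, adjusted p 0.0242 over 21 ratio tests, two-sided). This was the only one of the 21 called, and it remained so without Saline-water 13 (0.34, adjusted p 0.0437), while a difference of medians gave 0.38 with an adjusted p of 0.0710.

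The same ratio ranged from 0.645 to 0.935 in Saline-antibiotic and from 0.851 to 1.08 in Leptin-antibiotic, with 3 of 6 leptin libraries above every saline library. The difference was 0.38 on the log2 scale (exact permutation p 0.00866, adjusted p 0.0796). Counted reads of Hnf4g thus exceeded those of Hnf4a in some leptin libraries of set MT and in no saline library. Within set M alone the difference was 0.27 (exact permutation p 0.0528, adjusted p 0.123) and within set MT on water 0.50 (exact permutation p 0.0130, adjusted p 0.0796).

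**Figure D2:**
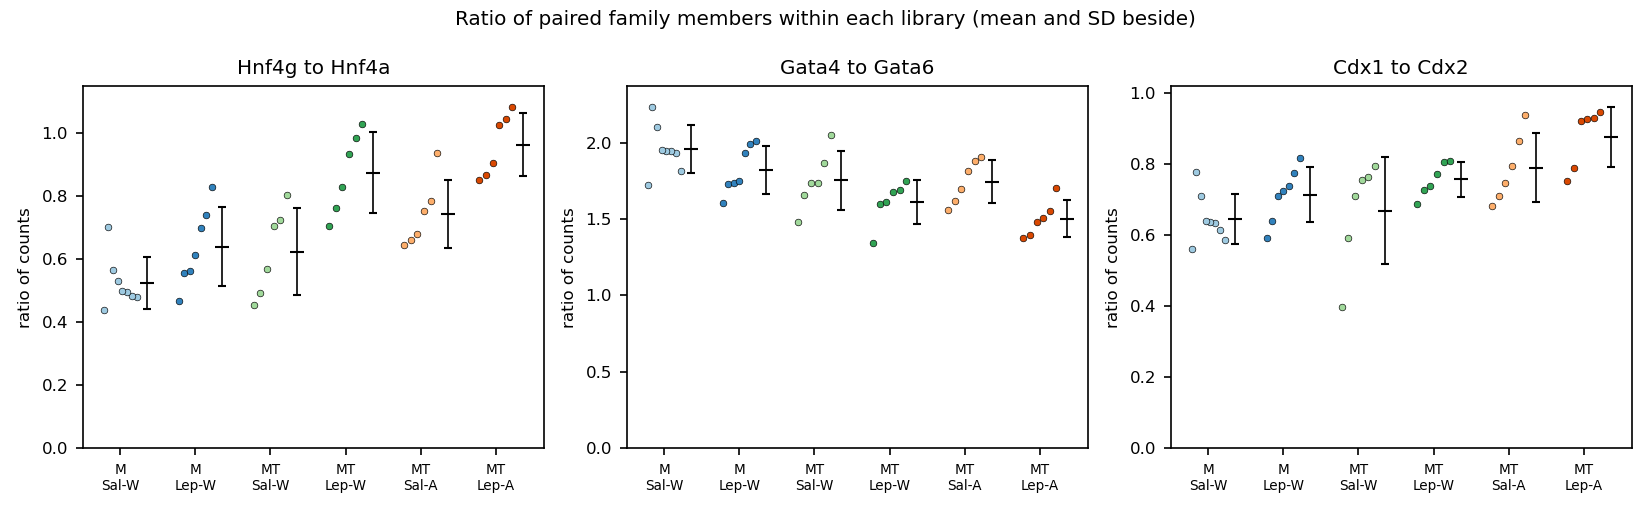
Ratio of deposited counts of related factors within each library (vertical axes, from 0), by set and group. Each point is 1 library, and the bar beside it is the mean with the SD. Hnf4g to Hnf4a is higher with leptin in both sets, and reaches 1.08 in Leptin-antibiotic.

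Gata6 separated the antibiotic groups. It ranged from 114.5 to 147.6 CPM (median 135.9) in Saline-antibiotic and from 155.5 to 183.4 CPM (median 172.1) in Leptin-antibiotic. Every one of the 6 leptin libraries lay above every saline library. The share of all genes with such a separation is not given here, so how unusual it is cannot be judged. The log2 fold change was 0.35 (SE 0.08) with an adjusted p by edgeR of 0.0508, so it missed the threshold. By edgeR 0 of the 8 factors were called in this comparison, in which 0.514% of 16340 genes were called. Factors with an unadjusted p under 0.05 were 2 (Gata6 and Hnf4g), against 17.2% of all genes. DESeq2 and limma voom each called 1 factor, Gata6 (adjusted p 0.00708 and 0.0311), among 443 and 96 genes called in all.

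The Gata6 value moved with the libraries used. It was called by edgeR without any one of Saline-water 10 or 13, Saline-antibiotic 6 or Leptin-antibiotic 5 or 6, with 0.35 and an adjusted p of 0.0219 without Saline-water 13. With the pancreas-high libraries dropped (3 of 6 Saline-antibiotic and 1 of 6 Leptin-antibiotic among them) it was 0.23 (adjusted p 0.577). With the pancreas list and the stomach and Brunner gland list as covariates it was 0.31 (adjusted p 0.0955). The enterocyte list moved in the same direction, with mean log2 CPM from 10.09 to 10.77 in Saline-antibiotic and from 10.61 to 11.02 in Leptin-antibiotic, and its part in the Gata6 and Hnf4g values was not tested.

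On water Gata6 differed less between saline and leptin. It ranged from 126.3 to 183.4 CPM (median 136.2) in Saline-water and from 131.8 to 160.0 CPM (median 149.3) in Leptin-water. The ranges overlapped, although 12 of 13 leptin libraries lay above the saline median and, within sets, 5 of 7 in set M and 0 of 6 in set MT lay above every saline library. The log2 fold change was 0.07 (SE 0.05, adjusted p 0.613). The difference between the leptin effects on antibiotic and on water in set MT was 0.31 (SE 0.12, adjusted p 0.772), where edgeR called 0.0% of 16340 genes and 0 of the 8 factors, and 2 factors (Gata6 and Sox2) had an unadjusted p under 0.05, against 6.38% of all genes. DESeq2 and limma voom also called 0 factors there.

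Gata4, which keeps proximal enterocytes from taking on features of the ileum, differed little. It ranged from 225.7 to 318.2 CPM (median 260.5) in Saline-water and from 206.1 to 296.9 CPM (median 258.5) in Leptin-water, or -0.04 on the log2 scale (SE 0.05, adjusted p 0.821). On antibiotic it ranged from 215.3 to 257.2 CPM (median 230.5) with saline and from 236.2 to 276.2 CPM (median 251.9) with leptin. There 3 of 6 leptin libraries lay above every saline library, and the log2 difference was 0.14 (SE 0.08, adjusted p 0.363).

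The ratio of Gata4 to Gata6 was lower in most leptin libraries on antibiotic without passing the test. It ranged from 1.56 to 1.91 in Saline-antibiotic and from 1.37 to 1.71 in Leptin-antibiotic, and 5 of the 6 leptin values were below all of the saline ones. The log2 difference was -0.22 (exact permutation p 0.0152), with an adjusted p of 0.0796 over the 21 ratio tests, and -0.14 (adjusted p 0.260) with the pancreas-high libraries dropped. On water it was -0.11 (permutation p 0.0362, adjusted p 0.109).

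Pdx1, which specifies the pancreas and the rostral duodenum in the embryo, did not pass the test in any comparison. In Saline-water it ranged from 113.3 to 200.8 CPM (median 128.5) and in Leptin-water from 108.6 to 144.3 CPM (median 123.8). Of the leptin libraries 3 of 13 lay above the saline median. In set M 0 of 7 lay above the saline median of their own set, and in set MT 5 of 6. The log2 fold changes by edgeR were negative in both sets, -0.12 (SE 0.09, adjusted p 0.600) and -0.07 (SE 0.10, adjusted p 0.837). The medians of set MT went the other way, at 116.95 CPM with saline and 125.2 CPM with leptin. Its saline libraries include Saline-water 13, at 200.8 CPM against 113.3 to 133.8 CPM in the others. Over both sets the log2 fold change was -0.10 (SE 0.06, adjusted p 0.593), and between -0.12 and -0.03 without single libraries. Antibiotic in saline mice gave -0.20 (SE 0.11, adjusted p 0.463), and -0.05 without Saline-water 13, and leptin on antibiotic gave -0.01 (SE 0.11, adjusted p 0.978).

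Cdx2, the factor required for intestinal identity, was lower in most leptin libraries on water without passing the test. It ranged from 83.36 to 131.7 CPM (median 99.96) in Saline-water and from 76.72 to 109.3 CPM (median 89.9) in Leptin-water. Of 13 leptin libraries, 3 lay below every saline library and 5 above the saline median. The log2 fold change was -0.17 (SE 0.06, adjusted p 0.235), with -0.15 in set M and -0.19 in set MT. Without single libraries these ranged from -0.19 to -0.12, from -0.16 to -0.11 and from -0.27 to -0.11. The saline libraries of set MT include Saline-water 13, at 131.7 CPM against 83.36 to 99.43 CPM in the others. On antibiotic the log2 fold change was -0.03 (SE 0.09, adjusted p 0.890), with ranges of 80.59 to 93.64 CPM and 73.95 to 93.73 CPM.

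Cdx1, which is strongest in crypts, was level on water. It ranged from 52.48 to 77.14 CPM (median 67.5) in Saline-water and from 56.52 to 82.89 CPM (median 65.9) in Leptin-water, or 0.01 on the log2 scale (SE 0.06, adjusted p 0.961). The ratio of Cdx1 to Cdx2 was 0.18 higher on the log2 scale with leptin on water (permutation p 0.0285, adjusted p 0.0996), and 0.11 (adjusted p 0.147) without Saline-water 13. In leptin mice, antibiotic went with a ratio higher by 0.21 (exact permutation p 0.0238, adjusted p 0.0996), where 4 of 6 libraries lay above every library on water.

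Antibiotic against water, tested within set MT, called no factor by edgeR. In saline mice 0.196% of 16340 genes were called, and of the factors 1 (Sox2) had an unadjusted p under 0.05, against 12.5% of all genes. In leptin mice 2.28% were called, and 2 factors (Gata6 and Cdx1) had an unadjusted p under 0.05, against 18.9% of all genes. DESeq2 and limma voom called 0 factors in both. In leptin mice Gata6 was 0.18 higher on the log2 scale (SE 0.08, adjusted p 0.234) with 4 of 6 antibiotic libraries above every water library, and Cdx1 was 0.22 higher (SE 0.10, adjusted p 0.221) with 3 of 6. Hnf4g was 0.22 (SE 0.12, adjusted p 0.445) in saline mice and 0.14 (SE 0.12, adjusted p 0.533) in leptin mice.

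**Figure D3:**
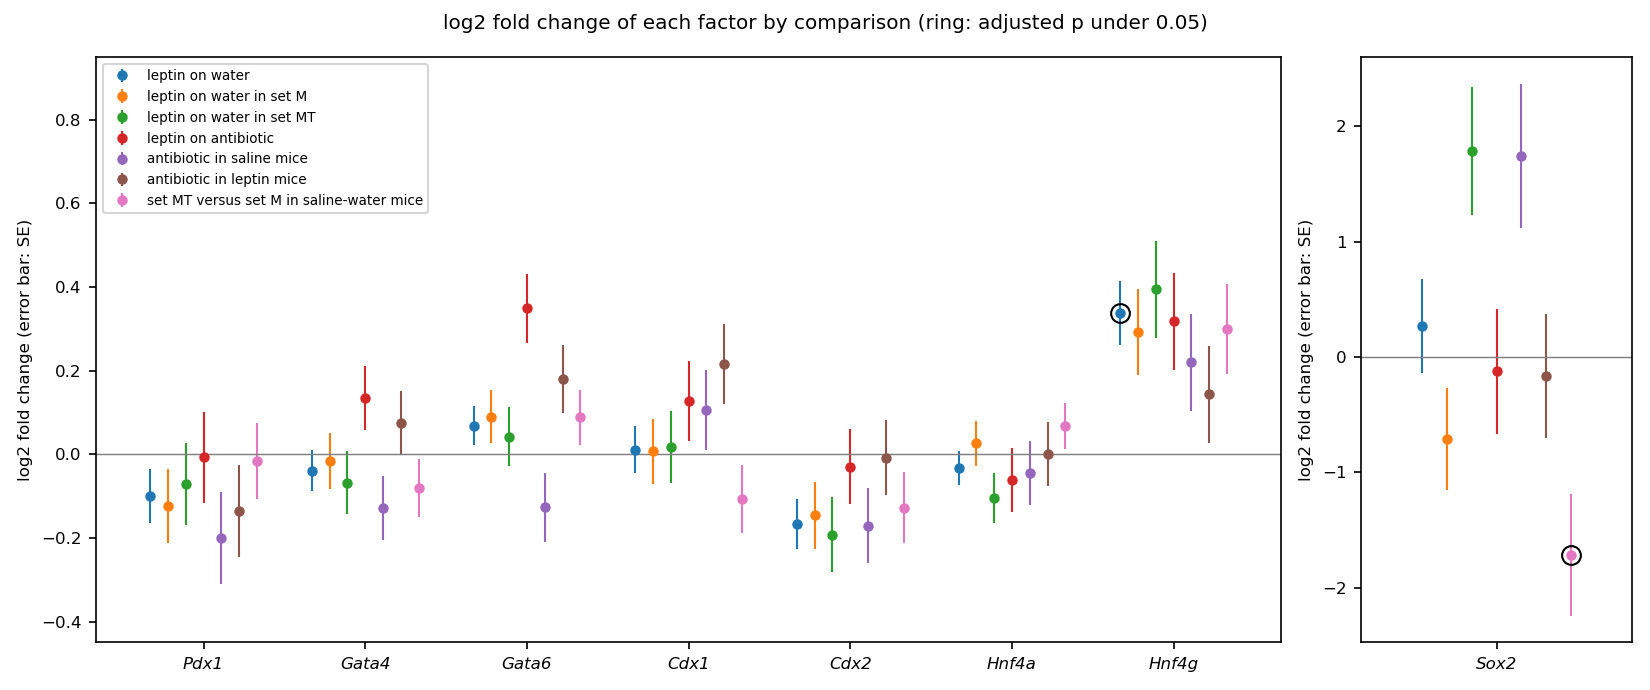
log2 fold change of each factor (vertical axes) in 7 comparisons, with 1 SE as error bar, and Sox2 on its own scale at the right. Rings mark an adjusted p under 0.05 by edgeR, which only Hnf4g on water and Sox2 between the sets reached. Hnf4g lies above 0 in all 7 comparisons, which share libraries.

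Sox2, the foregut factor, was near its detection limit and differed between the sets in Saline-water. In Saline-water it had 2 to 43 counts (median 26) in the 8 libraries of set M and 0 to 20 counts (median 5) in the 6 of set MT. That is 0.0428 to 0.849 CPM against 0.0 to 0.376 CPM, and no set MT library lay above the set M median. In Leptin-water the medians went the other way, with 14 counts in set M and 22.5 in set MT. The counts of 0, in Saline-water 9 and 13, allow up to 3 counts, or 0.0669 and 0.0737 CPM, for counting error only. The log2 fold change of set MT over set M in Saline-water was -1.72 (SE 0.53) with an adjusted p of 0.0251. Sox2 was the only factor called between the sets by edgeR, 1 of 8, where 17.3% of 16356 genes were called.

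That call also turned on single libraries and on the test. Without Saline-water 1, 9 or 13 the adjusted p was 0.0512, 0.0561 and 0.0543, and limma voom gave -1.48 with an adjusted p of 0.128. Hnf4g was next among the factors between the sets, 0.30 higher in set MT (SE 0.11, adjusted p 0.0539). DESeq2 and limma voom called it (adjusted p 0.0282 and 0.0332), among 3212 and 2628 genes called in all. The other 6 factors had adjusted p-values between 0.311 and 0.926.

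The difference of Sox2 between leptin and saline had opposite signs in the sets. In set M, Leptin-water libraries had 4 to 26 counts (median 14), against 2 to 43 with saline, and 0 of 7 lay above the saline median. In set MT they had 10 to 42 counts (median 22.5), against 0 to 20, and 5 of 6 lay above every saline library in CPM. The log2 fold changes were -0.71 (SE 0.44, adjusted p 0.543) and 1.78 (SE 0.56, adjusted p 0.271). Their difference was 2.49 (SE 0.71, adjusted p 0.186), so the test of the difference itself was not passed. Of the 8 factors 0 were called in either set or between their leptin effects, by edgeR, DESeq2 or limma voom, and 1, 3 and 1 had an unadjusted p under 0.05 by edgeR. Over all genes edgeR called 0.0856% in set M, 0.0122% in set MT and 0.0428% for the difference, and 11.8%, 10.1% and 9.86% had an unadjusted p under 0.05.

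The list of stomach and Brunner gland genes was read beside Sox2. Its mean in log2 CPM was 6.39 ± 0.887 (SD, n = 8) in Saline-water and 5.44 ± 1.42 (n = 7) in Leptin-water of set M. In set MT it was 5.34 ± 0.729 and 6.58 ± 0.441 (n = 6 each). Of the 15 listed genes tested, 0 had a positive leptin fold change in set M (46.1% of all genes) and 14 in set MT (49.5% of all genes). None of the 15 was called in either set by edgeR, DESeq2 or limma voom, and 4 and 10 had an unadjusted p under 0.05 by edgeR. Lists of other gut wall cells had the opposite signs, with smooth muscle genes positive in 14 of 14 in set M and 0 of 14 in set MT and enteric glia and neuron genes in 16 and 2 of 18. The part of these lists in the Sox2 values was not tested beyond the covariates that follow. The stomach genes Gkn1 and Tff1 had medians of 48.5 and 14.6 CPM in Saline-water and 352 and 94.9 CPM in Leptin-water of set MT. With the stomach and Brunner gland list and the pancreas list as covariates the Sox2 difference between sets was -0.91 (adjusted p 0.279). Krt15 and Serpinb5 were the only ones of 12 squamous foregut genes in the table analysed here.

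Sox2 on antibiotic showed no separation. It had 4 to 46 counts (median 15.5) in Saline-antibiotic and 5 to 46 (median 19) in Leptin-antibiotic, or -0.13 on the log2 scale (SE 0.54, adjusted p 0.925). Its sign turned when the pancreas-high libraries were dropped, to 1.51 (adjusted p 0.623). In saline mice antibiotic gave 1.74 (SE 0.63, adjusted p 0.255), with 3 of 6 libraries above every Saline-water library of set MT, and 0.21 (adjusted p 0.940) with the pancreas-high libraries dropped.

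Genes known as targets of the factors or as marks of gut region were set beside them from lists. In the fit of both sets on water, no list gene was called for leptin by edgeR, DESeq2 or limma voom. Of 16 HNF4 target genes, which serve lipid export and the brush border, 8 had a positive log2 fold change, with a median of 0.00, and 0 had an unadjusted p under 0.05. Of 12 CDX target genes 10 were positive (median 0.06, 1 at an unadjusted p under 0.05), of 12 proximal small intestine genes 8 (0.04, 1), of the 6 distal ileum genes tested all 6 (0.11, 1), and of 20 other gut transcription factors 7 (-0.03, 2). Over all genes tested 47.1% were positive, with a median of -0.01, and 11.4% had an unadjusted p under 0.05.

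On antibiotic the same lists lay to the positive side, still without a call by edgeR. HNF4 targets were positive in 15 of 16 (median 0.29, 12 at an unadjusted p under 0.05) and CDX targets in 12 of 12 (0.32, 11). Proximal genes were positive in 9 of 12 (0.24, 4) and distal ileum genes in 6 of 6 (0.35, 4). The enterocyte list, which shares genes with both target lists, was positive in 15 of 15 (0.31, 10), so these lists are not separate. The Saline-antibiotic libraries high in pancreas genes (1, 2 and 5) had enterocyte list means of 10.09, 10.48 and 10.36 log2 CPM. Numbers 3, 4 and 6 of that group had 10.77, 10.63 and 10.71, and the pancreas-high Leptin-antibiotic 3 had 10.99. The part of the pancreas-high libraries in these list values was not tested. Other gut transcription factors were positive in 11 of 20 (0.01, 3), against 46.4% of all genes (median -0.02), of which 17.2% had an unadjusted p under 0.05. DESeq2 called 2 HNF4 targets, 3 CDX targets, 2 proximal genes, 1 distal gene and 2 of the other factors, and limma voom called 0 of them. Among the 16340 genes tested, DESeq2 called 443 and limma voom 96.

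Some of the list genes passed the edgeR test between antibiotic and water. S100g, which encodes the calcium-binding protein of duodenal enterocytes, fell by 1.15 on the log2 scale in saline mice (SE 0.17, adjusted p 0.00788) and by 1.02 in leptin mice (SE 0.17, adjusted p 0.00336). Car4, a membrane carbonic anhydrase of the proximal list, rose by 1.20 (SE 0.20, adjusted p 0.00802) and by 1.00 (SE 0.20, adjusted p 0.00906). In leptin mice the HNF4 target Apoc3, an apolipoprotein, rose by 1.15 (SE 0.17, adjusted p 0.00269), and Myo7b, a brush border myosin, by 0.33 (adjusted p 0.0462). Apoa4, the CDX target Mep1a and the ileal bile acid transporter gene Slc10a2 also rose in leptin mice, by 0.70, 0.52 and 0.83 (adjusted p 0.0462, 0.0424 and 0.0462).

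List genes were also called between the sets. In Saline-water, 5 of the 20 other gut factors were lower in set MT, where 17.3% of all genes were called in either direction, with Foxa3 at -0.39 (adjusted p 0.00221) and Sox9 at -0.55 (adjusted p 0.0233). The proximal iron genes Slc40a1 and Slc11a2 were lower by edgeR as well, at -0.38 (adjusted p 0.00374) and -0.94 (adjusted p 0.00642), and the HNF4 target Ttr at -2.10 (adjusted p 3.94e-06). Foxa3, a forkhead factor of the gut endoderm, was also lower with leptin in set M, by 0.43 (SE 0.08, adjusted p 0.0473). It was the only list gene called in any leptin comparison by edgeR. Both Foxa3 calls share the Saline-water libraries of set M, with a mean of 31.6 CPM, against 23.6 CPM in Leptin-water of set M. In set MT the means were 24.3 CPM in Saline-water and 25.9 CPM in Leptin-water.

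Across libraries Pdx1, Gata4 and Cdx2 moved together. Deviations of log2 CPM from the set and group means were correlated over 39 libraries for the 28 pairs, with p-values from permutation within set and group, and 3 positive and 2 negative pairs were called. Pdx1 went with Gata4 (Pearson r 0.698, adjusted p 0.00168; Spearman rho 0.595, adjusted p 0.00294). It also went with its chromosome neighbour Cdx2 (r 0.682, adjusted p 0.00392; rho 0.615, adjusted p 0.00294). Gata4 and Cdx2 gave r 0.554 (adjusted p 0.0195) and rho 0.442 (adjusted p 0.0407).

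Saline-water 13 carried a share of these relations. Without it Pdx1 kept r 0.556 with Gata4 (adjusted p 0.0114) and 0.503 with Cdx2 (adjusted p 0.0245), while Gata4 and Cdx2 fell to 0.386 (adjusted p 0.127). Without the 2 libraries farthest from the median of the first gene, Saline-water 13 among them, the 3 values of r were 0.545, 0.536 and 0.370. Within set M they were 0.446, 0.645 and 0.397 and within set MT 0.782, 0.706 and 0.616. Leaving Saline-water 13 out also brought in Gata6 with Hnf4g, from 0.426 (adjusted p 0.0746) to 0.655 (adjusted p 0.00168), and Cdx1 with Cdx2, from 0.175 (adjusted p 0.385) to 0.453 (adjusted p 0.0245). The HNF4 relatives themselves did not go together (r -0.107, adjusted p 0.604).

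**Figure D4:**
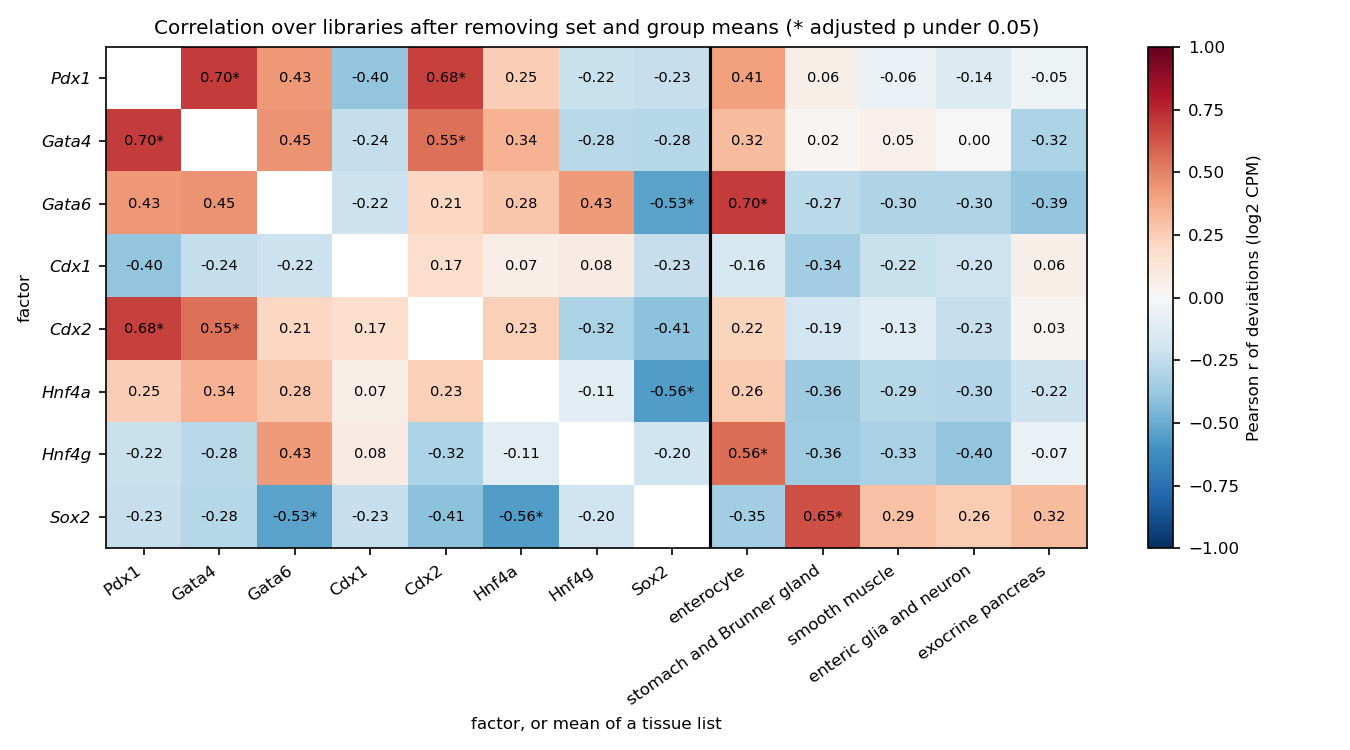
Pearson r of deviations of log2 CPM from set and group means over 39 libraries, between factors (left of the line) and between factors and tissue list means (right). The exocrine pancreas column used only the 33 libraries not high in pancreas genes. Stars mark an adjusted p under 0.05. The 3 positive stars between factors lie among Pdx1, Gata4 and Cdx2, and of the 7 negative values of Sox2 against other factors 2 are starred.

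Sox2 moved against Hnf4a and Gata6 and with the stomach and Brunner gland list. Its r was -0.558 with Hnf4a (adjusted p 0.00625; rho -0.585) and -0.532 with Gata6 (adjusted p 0.0383; rho -0.592), and without the 2 farthest libraries -0.502 and -0.539. With the 6 pancreas-high libraries dropped these were -0.441 (adjusted p 0.0734) and -0.487 (adjusted p 0.128), and without Saline-water 13 the Gata6 value was -0.452 (adjusted p 0.0990). With the other 5 factors its r was between -0.409 and -0.196 (adjusted p 0.0746 to 0.376), none called, and with Pdx1 it was 0.414 in set M and -0.411 in set MT. Against the stomach and Brunner gland list the r of Sox2 was 0.648 (adjusted p 0.0002; rho 0.614), 0.745 in set M, 0.594 in set MT and 0.701 without the 2 farthest libraries.

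Of the 40 pairs of a factor with a tissue list, 3 were called, all positive. Beside Sox2 with the stomach and Brunner gland list these were Gata6 and Hnf4g with the enterocyte list. Gata6 had r 0.697 (adjusted p 0.0002; rho 0.716), with 0.277 in set M and 0.782 in set MT, and 0.650 without the 2 farthest libraries. Hnf4g had r 0.555 (adjusted p 0.0088; rho 0.550), with 0.424 in set M, 0.623 in set MT and 0.540 without the 2 farthest. Hnf4a, by contrast, had r 0.262 (adjusted p 0.320) with that list. No factor was called against the pancreas, smooth muscle or enteric glia and neuron lists. The pancreas list was tested only over the 33 libraries not high in it, so the pancreas-high libraries had no part in that result.

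**Figure D5:**
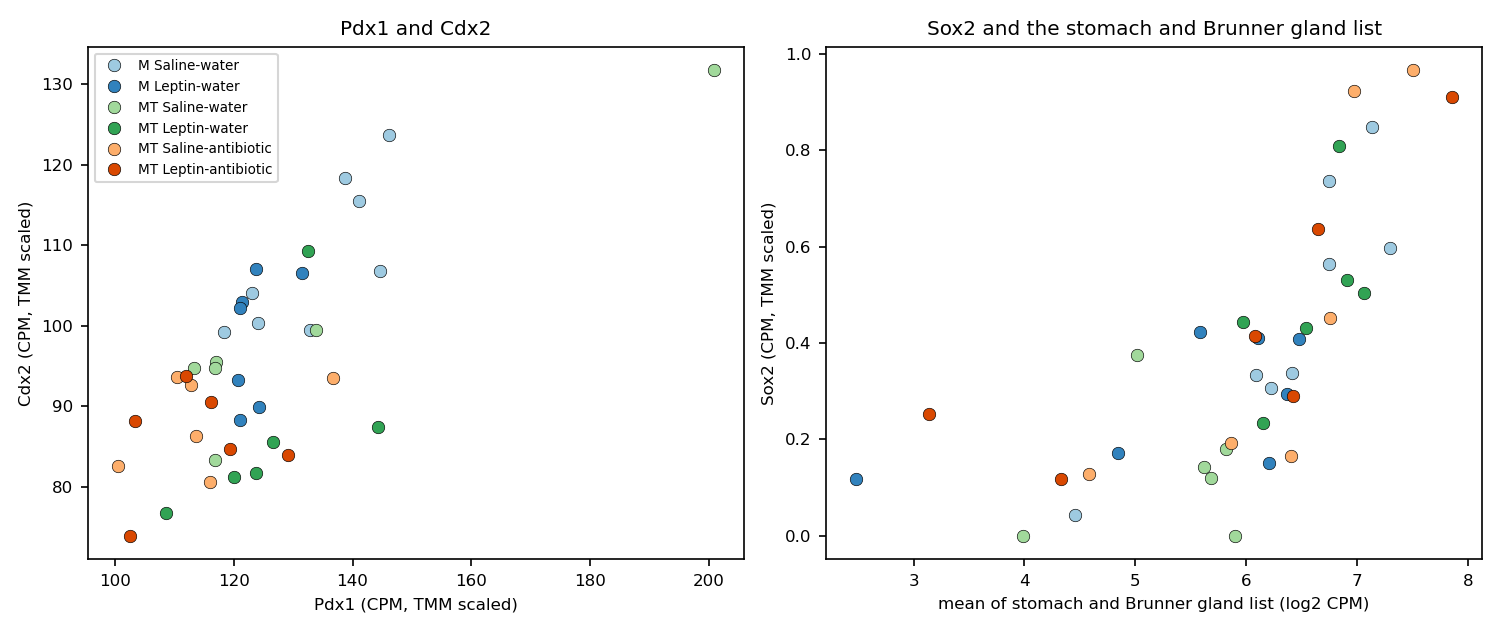
Left, Cdx2 against Pdx1, both in CPM, with Saline-water 13 alone at the upper right (200.8 and 131.7). Right, Sox2 in CPM against the mean log2 CPM of the stomach and Brunner gland list, where Sox2 is highest in libraries with a high list mean. Each point is 1 of 39 libraries, coloured by set and group.

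The genes whose pattern was most like each factor were found by the same deviations over 39 libraries, among 12585 genes whose mean log2 CPM reached 1 (12586 for Sox2). Genes with provisional names (Gm, Rik, LOC, ENSMUSG or accession-like symbols) were left out of the search. The r of the genes found is a description, since the highest values were picked. Hnf4g was most like Slc30a4 (r 0.853), Lrrc19 (0.832) and Nr1i2 (0.823). Gata6 was most like Sos2 (0.856), Sh3d19 (0.822) and the apolipoprotein gene Apoa1 (0.820), and Hnf4a was most like Atp10b (0.831), Itpk1 (0.734) and Slc23a4 (0.725). Sox2 was most like the keratin gene Krt23 (0.776), S100a6 (0.762) and Mboat1 (0.761).

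For Pdx1 the leading genes were the profilin gene Pfn1 (r 0.845), Tmem127 (0.806) and Rnasek (0.786), which fell to 0.628, 0.535 and 0.443 without Saline-water 13. Gata4 led with Bcar1 (0.811), Foxf2 (0.766) and Crb3 (0.758), and Cdx2 with Dgkz (0.735), Chchd10 (0.726) and the linker histone gene H1f0 (0.724). Cdx1 was most like Stard7 (0.777) and the core histone genes H4c6 (0.776) and H3c11 (0.767), which belong to families of near-identical copies that can share reads. None of the 8 factors was among the 3 genes most like another, but Sox2 was under the level required and could not be found.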

How the data were processed

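The authors deposited 1 filtered table of counts by gene symbol, with no normalization. HISAT2, featureCounts, FastQC, edgeR 3.42.0 and mm10 are named in the submitters' processing notes. Of the annotation, the filter rule and the strand setting, each is not given in the sources used here. If strand was not used, reads of a gene and of its antisense partner cannot be told apart. Per the labels' protocols, libraries were strand-specific, depleted of ribosomal RNA and read as paired ends of 50 bases.

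The main test was that of edgeR 4.0.16 in R 4.3.3, with TMM factors, filterByExpr, the quasi-likelihood test and Benjamini-Hochberg adjustment over all genes tested, with a threshold of 0.05. For leptin on water the fit held the 27 water libraries and a term for set, values within and between sets came from the same libraries by set and group, and antibiotic comparisons from the 24 libraries of set MT. Standard errors come from dividing each fold change (log2) by the root of its F statistic. Ratios and correlations were tested by permutation (exact for single sets, otherwise 100000 draws, smallest p 1e-05). log2 CPM used a prior count of 2. Positions are from GENCODE vM21, where 15967 of 16358 symbols (97.6%) matched. The fits were tested on simulated counts. The alternatives were DESeq2 1.42.0, limma 3.58.1 (voom with quality weights), RLE factors, no filter on low counts, leaving out libraries, list means as covariates and a replicate block. Genes named are all 8 factors, the 3 genes most like each, and from each list at most 4 genes past the threshold by p. The 8 factors and the lists were chosen with earlier results of these data known. Leaving out Saline-water 13 from ratios and correlations, the longest transcript as length, and the 12 antibiotic libraries alone were chosen after seeing the data.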

Additional observations from a re-analysis of the deposited data

Results flagged for a closer look

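Each factor and ratio was checked in each set and group of 6 to 8 libraries for a library far from the others, in 66 checks, of which chance flags about 1 in 20. Flags were raised for 7. Pdx1 was 200.8 CPM in Saline-water 13, against 113.3 to 133.8 CPM in the other libraries of its set and group, and Cdx2 was 131.7 CPM in the same library, against 83.36 to 99.43 CPM. Leptin-water 12 was high in both CDX factors, with Cdx2 at 109.3 CPM (others 76.72 to 87.48) and Cdx1 at 75.22 CPM (others 62.02 to 65.91). Cdx1 was 87.71 CPM in Saline-antibiotic 1 (others 61.18 to 69.71), which is also high in pancreas genes. Pdx1 was 131.5 CPM in Leptin-water 1 (others 120.7 to 124.2). The ratio of Gata4 to Gata6 was 1.345 in Leptin-water 11, below the 1.598 to 1.746 of the others.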

How the results depend on the processing

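Over the 8 factors and 9 comparisons, 414 of the values under other tests, scalings, filters or samples kept their direction and their side of the threshold, 29 turned sign, 8 passed and 5 lost the threshold. Of the fits that left out 1 library each, 1736 values kept both, 68 turned sign, 19 passed and 25 lost the threshold. Where a call or a sign changed, the cause was not tested. For leptin on water edgeR called 51 genes, while DESeq2 called 173, limma voom 128, the fit without pancreas-high libraries 33 and the fits without single libraries 10 to 147. Factors called there were 0 without pancreas-high libraries or with list covariates, and 0 to 1 without single libraries. In set M, with 14 called by edgeR, the same settings in that order called 82, 37, 147 and 0 to 55 genes, and the covariate fit 34. In set MT (2 by edgeR) they called 28, 1, 1 and 0 to 22, with 0 under covariates, and for the difference of the sets (7 by edgeR) 75, 0, 3 and 0 to 36, with 3 under covariates. Leptin on antibiotic gave 84 genes by edgeR, 443 by DESeq2, 0 without pancreas-high libraries, 43 with covariates and 9 to 183 without single libraries. Antibiotic in saline mice gave 32 by edgeR, 183 by DESeq2, 81 by limma voom, 17 without pancreas-high libraries and 14 to 100 without single libraries. In leptin mice these were 372, 780, 1394, 205 and 73 to 650, with 191 under covariates. Between the sets 2 factors were called by DESeq2, with RLE factors, with no filter and without pancreas-high libraries, 0 with covariates, and 0 to 2 without single libraries. On antibiotic 1 factor was called by DESeq2, limma voom and in the 12 antibiotic libraries alone, and 0 to 1 without single libraries.

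Values that turned sign were mostly near 0. On water Cdx1 was -0.0057 by limma voom and -0.0092 to 0.0398 without single libraries. On antibiotic Sox2 was 0.14 by limma voom, 1.51 without pancreas-high libraries, 0.43 with covariates and -0.48 to 0.21 without single libraries. Pdx1 ranged there from -0.0466 to 0.0494 and Cdx2 from -0.0569 to 0.0097 without single libraries. Between the sets Pdx1 was 0.017 with covariates and -0.153 to 0.0357 without single libraries. Hnf4a with antibiotic in leptin mice was -0.0051 by DESeq2 and with RLE factors, -0.0206 with no filter and -0.0219 with covariates, and ranged from -0.0206 to 0.021 without single libraries. As differences of medians the log2 ratio of Hnf4g to Hnf4a with leptin on water was 0.38 (adjusted p 0.0710), and that of Gata4 to Gata6 with antibiotic in saline mice was 0.016. Without pancreas-high libraries 3 pairs of factors were called. Hnf4g between the sets was called in some of the fits that left out 1 library (adjusted p 0.0137 to 0.138).

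Replicate numbers did not pair the samples. Among same-numbered saline and leptin libraries, correlations of deviations over genes were -0.262 to 0.581 in 6 antibiotic pairs, 1 over 0.1, and -0.278 to 0.251 in 13 water pairs, 3 over 0.1. The own number gave the best correlation for 1 and 0 of them. With a replicate block leptin on water called 0 genes and 0 factors (Hnf4g 0.34, adjusted p 0.109), and leptin on antibiotic 13 genes (Gata6 0.34, adjusted p 0.150), against 61 in the same 12 libraries without the block (Gata6 0.33, adjusted p 0.0461). Sox2, at 0 to 46 counts, is limited by depth.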

Other observations

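Antisense and neighbouring transcripts of 3 of the factors were in the table, and they followed their partners to different degrees. Plut, transcribed opposite Pdx1, was lower in set MT than in set M in Saline-water (26.4 ± 3.14 CPM, n = 6, against 35.2 ± 2.94 CPM, n = 8; log2 fold change -0.43, SE 0.07, adjusted p 0.000254 by edgeR), where Pdx1 itself gave -0.02 (adjusted p 0.926). Hnf4aos, opposite Hnf4a, was 5.67 ± 1.03 CPM in Saline-antibiotic and 4.15 ± 1.00 CPM in Leptin-antibiotic (n = 6 each; -0.44, SE 0.14, adjusted p 0.134 by edgeR), and in leptin mice antibiotic gave -0.51 (adjusted p 0.0560), where Hnf4a gave 0.00 (adjusted p 1.00). Gata6os was 12.5 ± 1.27 CPM in Saline-antibiotic and 15.8 ± 2.06 CPM in Leptin-antibiotic (n = 6 each; 0.35, SE 0.10, adjusted p 0.0875 by edgeR), beside 0.35 for Gata6. The signs of Gata6os and Gata6 differed only between the sets in Saline-water. There edgeR gave -0.08 (adjusted p 0.650) for Gata6os and 0.09 (adjusted p 0.375) for Gata6.

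An immune and a muscle marker also passed the edgeR test with antibiotic in leptin mice. The B cell gene Ms4a1 fell by 2.05 on the log2 scale (SE 0.39, adjusted p 0.00742), and Actg2, the smooth muscle actin of the gut wall, rose by 0.72 (SE 0.15, adjusted p 0.0131). In saline mice Krt15, a keratin of the squamous list, rose by 1.10 (SE 0.19, adjusted p 0.0103) and the pancreatic lipase-related gene Pnliprp2 by 1.11 (SE 0.23, adjusted p 0.0398), in a group in which 3 of 6 libraries were high in pancreas genes. Between the sets, the neuronal genes Stmn2, Elavl4, Tubb3 and Snap25 were higher in set MT by 0.60 to 1.25 on the log2 scale, and the stomach gene Tff1 was lower by edgeR (-2.31, adjusted p 0.0228).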
